A study of Mus musculus with 12 samples.

Results

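The genes described here are 9 complement components and receptors that cardiac macrophages express: the C1q chains C1qa, C1qb and C1qc, the components C3 and C4b, the alternative pathway genes Cfb and Cfp, and the anaphylatoxin receptors C3ar1 and C5ar1. They were picked by gene name from the 55487 genes of the count table, with earlier results of these data known. All 9 passed the filter on low counts and were among the 18773 genes tested. Their RNA was measured by bulk RNA sequencing in 12 libraries of macrophages sorted from mouse hearts at day 2 of ischemia and reperfusion (I/R), an injury in which a coronary artery is closed for a time and then reopened.

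The 12 libraries formed 4 groups of 3: CD45.2+ macrophages of the infarct zone, CD45.2+ macrophages of the remote zone, CD45.1+ macrophages of the infarct zone and CD45.1+ macrophages of the remote zone. All came from adult CD45.2 Mx1Cre Myb flox/flox mice of 10 to 16 weeks that had received 4 injections of polyI:C and then bone marrow of CD45.1 donors, with I/R injury 4 weeks after the transplant and chimerism above 90%. CD45.2+ cells therefore descend from the host and stand for resident macrophages, and CD45.1+ cells descend from the donor marrow and stand for recruited macrophages. Chimerism above 90% need not be complete. CD45.2+ cells could thus include some recruited from remaining host marrow, in either zone, and their share was not measured here. About 1000 macrophages per library were sorted as live, lineage-negative, CD11b+, F4/80+ and CD64+ cells. The Mx1 promoter that drives Cre responds to interferon and is not restricted to one cell type, and only the CD45.2+ cells carried the transgene, could lose Myb and had met polyI:C, so origin, genotype and this exposure cannot be told apart between the populations. The labels tie no library to an animal, and p-values below measure the spread between libraries of a group.

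Complement is a cascade of plasma proteins that marks particles and dying cells for removal. C1q, built from A, B and C chains, binds its target and starts the classical pathway, in which C4 and C2 form the enzyme that cleaves C3. In the alternative pathway factor B takes the place of C2 and properdin stabilises the enzyme. The fragments C3a and C5a attract and activate leukocytes through their receptors. Most plasma complement comes from the liver, but macrophages make C1q and several other components locally, and C1q also helps tissue macrophages to take up apoptotic cells.

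Library depth was 33253340 to 63435529 counts assigned to genes, with a median of 52790784.5. Values are CPM, counts scaled to library size with TMM factors, with SD over the 3 libraries of a group, and "per kb" means CPM divided by the exon length of the gene in kilobases. The macrophage markers Adgre1 (590 to 1713 CPM), Csf1r (1797 to 4800 CPM), Fcgr1 (119 to 457 CPM) and Ptprc (351 to 567 CPM) were present in every library. The second principal component, with 15.02% of the variance, set S104 to S107 (1 library of each group) against the remaining 8. In a bulk sample, fewer cells of a type and less RNA per cell cannot be told apart.

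The comparison of CD45.2+ with CD45.1+ macrophages asks how resident and recruited cells differ after injury. In the remote zone, 4 of the 9 members were higher in CD45.2+ cells (C1qa, C1qb, C1qc and C4b), 2 were lower (C3 and C3ar1) and 3 did not pass the test (Cfb, Cfp and C5ar1). Of all genes tested there, 16.2% were higher and 15.8% were lower by the same rule, an adjusted p below 0.05 in edgeR's quasi-likelihood test. In the infarct zone, the same 4 members were higher in CD45.2+ cells and 1, C3, was lower, against 12% and 7.56% of all genes tested. The median log2 fold change of the 9 members was 0.83 for the remote and 0.53 for the infarct zone, against 0.04 in each zone for all genes. In each zone that median is the value of Cfb, which did not pass, so it is not read as a shift of the set. Single members passed on both sides, with the recognition and C4 transcripts high in CD45.2+ cells and the C3 transcript high in CD45.1+ cells. The calls were not tested as a set against the shares of all genes. With 2 or 1 of 9 members, the lower calls cannot be told from those shares and are read gene by gene only.

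**Figure D1:**
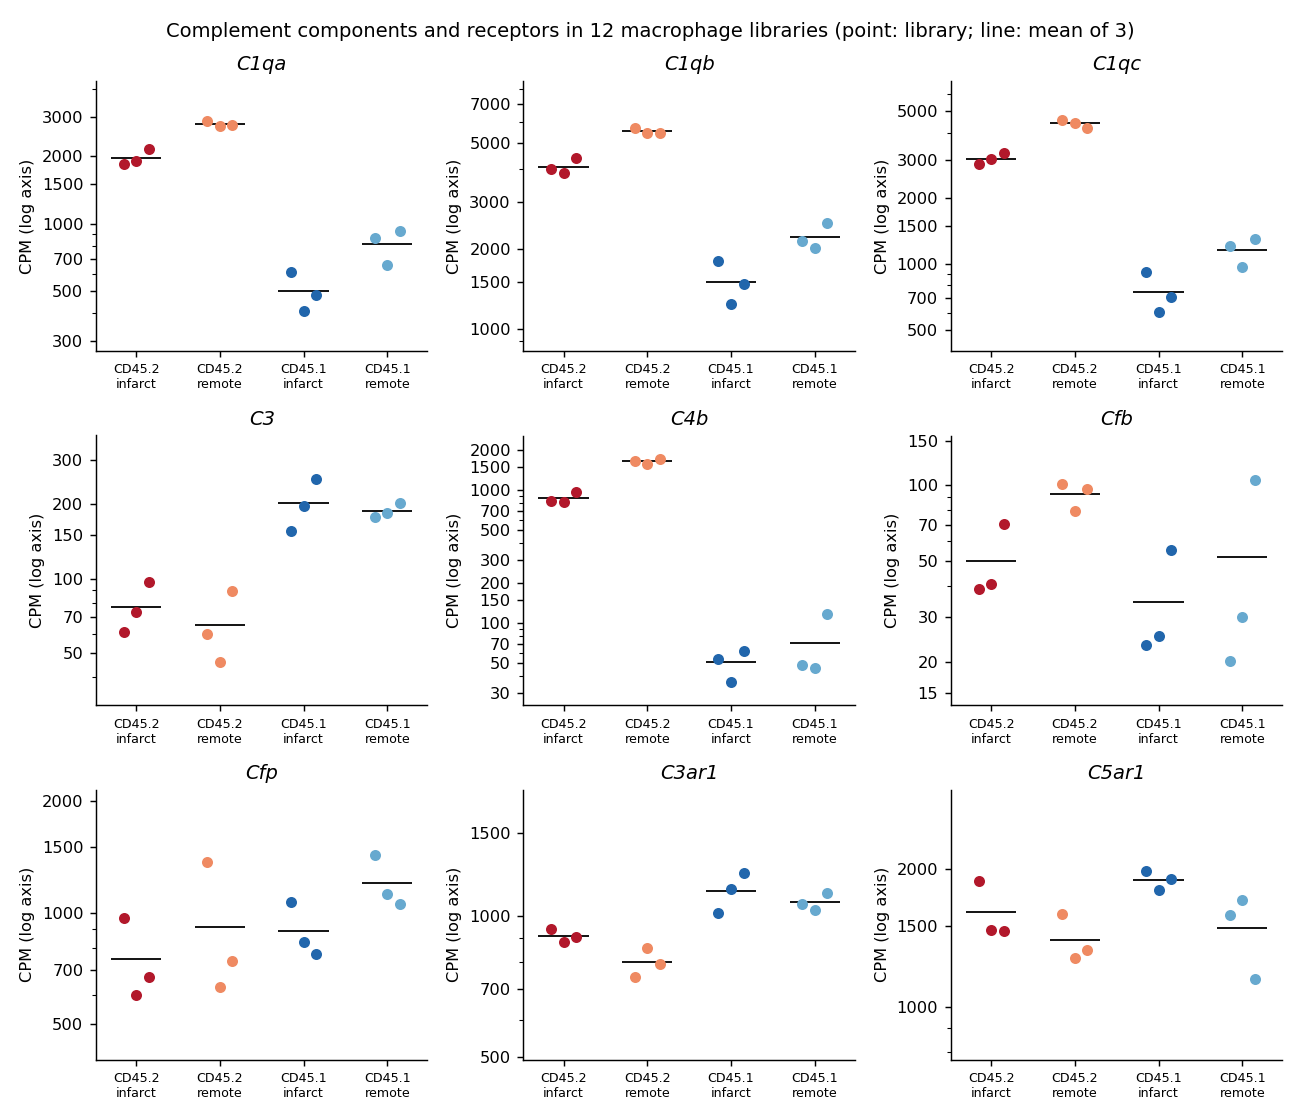
CPM (log axis) of each of the 9 genes in the 12 libraries, 1 panel per gene, with 1 point per library and a line at the mean of each group of 3. The C1q chains and C4b sit higher in all 6 CD45.2 libraries than in any CD45.1 library, C3 sits lower in all 6, and Cfb shows 1 CD45.1 remote library at 105.1 CPM, level with the CD45.2 remote libraries. The share of all genes that separate the populations in this way was not counted.

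The 3 C1q chain genes lie side by side on the minus strand of chromosome 4 in GRCm38: C1qb at chr4:136880129-136886187, C1qc at chr4:136889804-136893065 and C1qa at chr4:136895917-136898803. C1qa had 1841, 1907 and 2151 CPM in CD45.2 infarct libraries and 2889, 2741 and 2756 CPM in CD45.2 remote libraries, against 610, 407 and 482 CPM in CD45.1 infarct libraries and 866, 655 and 927 CPM in CD45.1 remote libraries. The lowest CD45.2 library, at 1841 CPM, was far above the highest CD45.1 library, at 927 CPM, and the populations did not overlap in either zone. How many of all genes separate the populations in this way was not counted, for C1qa or for the genes below. The log2 fold change of C1qa, CD45.2 over CD45.1, was 1.98 (SE 0.178, adjusted p = 2.49e-05) in the infarct zone and 1.78 (SE 0.177, adjusted p = 2.49e-05) in the remote zone in edgeR's quasi-likelihood test, which is 3.93-fold and 3.42-fold higher.

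C1qb, the B chain, had 3992, 3840 and 4398 CPM in CD45.2 infarct libraries and 5690, 5452 and 5436 CPM in CD45.2 remote libraries. CD45.1 infarct libraries had 1799, 1244 and 1478 CPM of C1qb, and CD45.1 remote libraries had 2143, 2018 and 2510 CPM. Its fold was the smallest of the chains, 2.70-fold higher in CD45.2+ cells of the infarct zone (log2 1.44, SE 0.159, edgeR adjusted p = 0.000106) and 2.49-fold higher in the remote zone (log2 1.31, SE 0.159, edgeR adjusted p = 0.000105). The libraries of the populations did not overlap.

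C1qc, the C chain, had 2867, 3031 and 3214 CPM in CD45.2 infarct libraries and 4586, 4409 and 4217 CPM in CD45.2 remote libraries. CD45.1 infarct libraries had 922, 603 and 706 CPM of C1qc, and CD45.1 remote libraries had 1212, 968 and 1305 CPM. As for the A chain, every CD45.2 library was above every CD45.1 library. It was 4.09-fold higher in CD45.2+ cells of the infarct zone (edgeR adjusted p = 2.06e-05) and 3.79-fold higher in the remote zone (edgeR adjusted p = 1.44e-05).

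The C1q transcripts were among the most abundant in CD45.2+ macrophages. Ranked by CPM per kb among the 18773 genes tested, C1qb was number 9 in both CD45.2 groups, number 25 in CD45.1 infarct and number 17 in CD45.1 remote macrophages. C1qc ranked 19 in CD45.2 infarct, 13 in CD45.2 remote, 125 in CD45.1 infarct and 74 in CD45.1 remote macrophages, a place that depends on the length taken for it. Together the chains took 0.887% to 1.34% of all counts in the 6 CD45.2 libraries and 0.223% to 0.474% in the 6 CD45.1 libraries. Their log2 CPM moved together over the 12 libraries, with pairwise Pearson r of 0.9958 to 0.999. These points share the 2 populations and their libraries, and the r values are given as a description.

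The chains did not keep one ratio, however. C1qb to C1qc, as CPM per kb, was 2.47, 2.25 and 2.43 in CD45.2 infarct libraries and 2.202, 2.195 and 2.288 in CD45.2 remote libraries, against 3.46, 3.66 and 3.72 in CD45.1 infarct libraries and 3.14, 3.70 and 3.41 in CD45.1 remote libraries. All 6 CD45.2 libraries lay below all 6 CD45.1 libraries, by 0.60 on the log2 scale in the infarct zone and 0.61 in the remote zone. A two-sided exact permutation test gave p = 0.1 in each zone, the lowest that 3 against 3 libraries allow, and 0.267 after Benjamini-Hochberg adjustment over the 8 ratio comparisons made. C1qa to C1qc was 1.20 in CD45.2 and 1.25 in CD45.1 infarct macrophages (exact p = 0.2, n = 3 each) and 1.179 in CD45.2 and 1.301 in CD45.1 remote macrophages (exact p = 0.1, n = 3 each). The exons counted for C1qc span 1931 bases and include a retained intron, and with the 1203 bases of its coding transcript the C1qb to C1qc ratio was 1.48 in CD45.2 and 2.25 in CD45.1 infarct macrophages, with the differences between groups unchanged by construction. With this length C1qa was below C1qc in all 4 groups, at a ratio of 0.748 in CD45.2 and 0.779 in CD45.1 infarct macrophages and 0.735 in CD45.2 and 0.810 in CD45.1 remote macrophages, so the order of these chains turns with the length used.

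**Figure D2:**
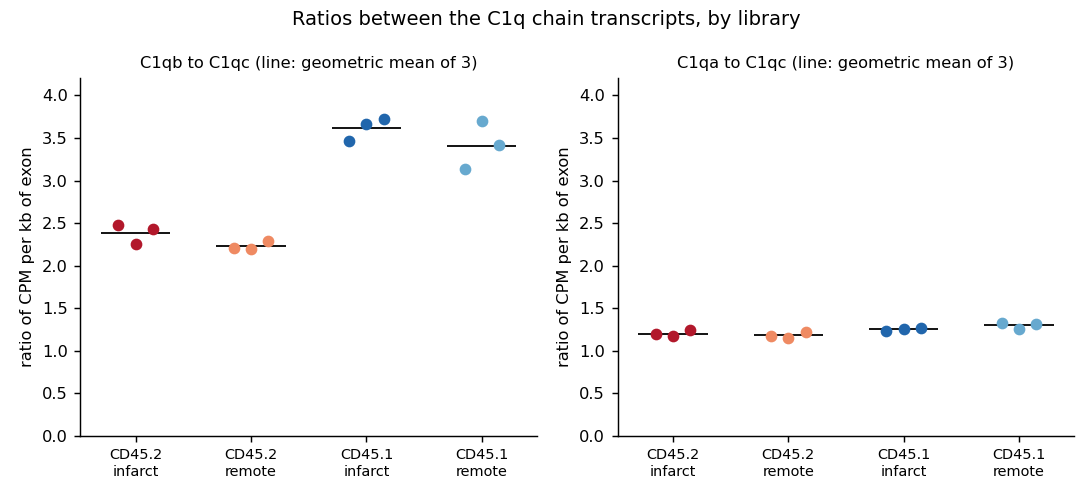
Ratio of C1qb to C1qc and of C1qa to C1qc, as CPM per kb of exon on a linear axis from 0, with 1 point per library and a line at the geometric mean of each group of 3. C1qb to C1qc lies at 2.195 to 2.471 in CD45.2 libraries and 3.14 to 3.72 in CD45.1 libraries, while C1qa to C1qc lies at 1.15 to 1.33 in all 12 libraries.

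The windows before the start sites of C1qb and C3 are shown because these genes differed between the populations in opposite directions. They hold the 250 bases upstream of the RefSeq start in GRCm38.p6, on the minus strand, at chr4:136886201-136886450 for C1qb and chr17:57228137-57228386 for C3. Capitals mark TGCTGA, the core bound by MAF factors, or its reverse complement TCAGCA in both windows, GAGGAA, a core bound by PU.1, in C1qb, and TTGCGAAA, which fits the C/EBP element TTGCNNAA, in C3.
C1qb: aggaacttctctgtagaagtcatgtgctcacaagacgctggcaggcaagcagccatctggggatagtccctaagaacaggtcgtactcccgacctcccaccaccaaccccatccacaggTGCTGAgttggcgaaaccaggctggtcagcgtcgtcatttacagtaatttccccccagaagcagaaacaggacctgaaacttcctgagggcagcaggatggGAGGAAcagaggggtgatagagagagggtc
C3: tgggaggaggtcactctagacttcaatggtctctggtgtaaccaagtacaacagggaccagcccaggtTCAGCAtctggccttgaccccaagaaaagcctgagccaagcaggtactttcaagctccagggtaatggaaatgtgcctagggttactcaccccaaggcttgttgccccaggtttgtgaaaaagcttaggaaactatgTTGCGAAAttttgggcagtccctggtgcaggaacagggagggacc
Counted back from the start, TGCTGA begins at -131 and GAGGAA at -30 in C1qb, and TCAGCA begins at -182 and TTGCGAAA at -45 in C3. RefSeq windows were matched for 6 of the 9 members, and those of C1qa, C4b and Cfb were not used. Searched on both strands, TGCTGA occurred in 4 of the 6 windows (C1qb, C3, C3ar1 and C5ar1) and in 16.1% of 32851 promoter windows of that length, GAGGAA in 2 (C1qb and C1qc) and in 23.3%, and TTGCNNAA in 1 (C3) and in 9.56%. C3ar1 also held the AP-1 element TGACTCA, found in 4.46% of all windows, and the box TATAAA, found in 12.4%. The interferon-stimulated response element occurred in 0 of the 6 windows and in 2.98% of all. These are letter matches, and no binding was measured.

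C3, the central component on which the pathways converge, ran the other way. It lies on the minus strand at chr17:57203970-57228136 and had 60.8, 73.3 and 96.5 CPM in CD45.2 infarct libraries and 59.9, 46.3 and 88.7 CPM in CD45.2 remote libraries. CD45.1 infarct libraries had 156, 195 and 252 CPM of C3, and CD45.1 remote libraries had 176, 184 and 202 CPM. The highest CD45.2 library, at 96.5 CPM, was below the lowest CD45.1 library, at 156 CPM. C3 was 2.62-fold lower in CD45.2+ cells of the infarct zone (log2 -1.39, SE 0.249, edgeR adjusted p = 0.0026) and 2.89-fold lower in the remote zone (log2 -1.53, SE 0.25, edgeR adjusted p = 0.000841). Per kb it ranked 3570 and 4048 in CD45.2 infarct and remote macrophages, against 1551 and 1624 in CD45.1 infarct and remote macrophages, far below C1q in every group.

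C4b, the C4 component of the classical pathway, showed the largest fold of the 9 members in both zones. The gene lies on the minus strand at chr17:34728380-34743882. C4b had 826, 809 and 961 CPM in CD45.2 infarct libraries and 1666, 1570 and 1717 CPM in CD45.2 remote libraries, against 54.1, 36.1 and 61.5 CPM in CD45.1 infarct libraries and 48.7, 46.1 and 118 CPM in CD45.1 remote libraries. The CD45.1 remote library at 118 CPM is S112, the highest of the CD45.1 libraries and still well below every CD45.2 library. C4b was 17.1-fold higher in CD45.2+ cells of the infarct zone (log2 4.10, SE 0.357, edgeR adjusted p = 2.06e-05) and 23.3-fold higher in the remote zone (log2 4.54, SE 0.364, edgeR adjusted p = 5.34e-06). Its rank per kb was 306 in CD45.2 infarct and 145 in CD45.2 remote macrophages, against 5506 in CD45.1 infarct and 4339 in CD45.1 remote macrophages.

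C4b has a near copy, C4a, at chr17:34809092-34823464, which in mice encodes the sex-limited protein and is annotated here as a processed transcript. The coding transcript of C4b and the aligned C4a transcript were 96.14% identical over 5367 aligned bases, with a longest identical run of 433 bases, so some reads could come from either gene. The pair is shown over 45 bases of C4b coding sequence on the minus strand of GRCm38, chr17:34735430-34735474, transcript positions 2776 to 2820 in GENCODE M21, because this window separates the copies by 11 substitutions, which stand in capitals.
C4b: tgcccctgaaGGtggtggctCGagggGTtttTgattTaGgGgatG
C4a: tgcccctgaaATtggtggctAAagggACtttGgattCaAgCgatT
C4a took 0.382% to 0.676% of the counts assigned to the pair in CD45.2 libraries and 0.555% to 1.99% in CD45.1 libraries. It averaged 3.98 ± 0.679 CPM in CD45.2 infarct and 8.47 ± 2.83 CPM in CD45.2 remote libraries, against 0.698 ± 0.494 CPM in CD45.1 infarct and 0.509 ± 0.192 CPM in CD45.1 remote libraries (SD, n = 3 each). It passed the test in both zones (log2 2.50 and edgeR adjusted p = 0.00357 in the infarct zone, log2 4.06 and edgeR adjusted p = 0.000125 in the remote zone), and how many of these reads belong to C4b cannot be told apart by counts per gene.

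Fibroblasts also make C4, and the fibroblast markers were therefore read beside C4b. Of 10 fibroblast markers, 0 were higher and 1, Gsn, was lower in CD45.2+ cells in each zone by edgeR, and their summed level was 653 to 1797 CPM in CD45.2 infarct and 734 to 1144 CPM in CD45.2 remote libraries, against 908 to 1151 CPM in CD45.1 infarct and 866 to 909 CPM in CD45.1 remote libraries. Most of that sum was Gsn, gelsolin, which macrophages also express, at 648 and 629 CPM on average in CD45.2 infarct and remote libraries, against 921 and 825 CPM in CD45.1 infarct and remote libraries. Without Gsn, the sum was 15.1 to 1136 CPM (mean 482) in CD45.2 infarct libraries. In CD45.1 infarct libraries it was 6.12 to 159 CPM (mean 98.3), with overlap (exact permutation p = 0.3, n = 3 each). The remote zone had 131 to 473 CPM in CD45.2 libraries, against 16.8 to 106.6 CPM in CD45.1 libraries with no overlap (exact permutation p = 0.1, the lowest possible, n = 3 each). Dcn, the proteoglycan decorin, averaged 52.3 ± 48.8 CPM in CD45.2 infarct and 85.8 ± 41.6 CPM in CD45.2 remote libraries, against 10.8 ± 9.34 CPM in CD45.1 infarct and 10.9 ± 8.76 CPM in CD45.1 remote libraries (SD, n = 3 each). Col1a1, a collagen gene of fibroblasts, averaged 73.7 ± 98.2 CPM in CD45.2 infarct and 26.1 ± 11.6 CPM in CD45.2 remote libraries. The averages were 9.62 ± 6.92 CPM in CD45.1 infarct and 7.61 ± 6.22 CPM in CD45.1 remote libraries (SD, n = 3 each). In the 3 CD45.2 infarct libraries Col1a1 was 0.867, 35.0 and 185 CPM, and C4b was 826, 809 and 961 CPM. The mean log2 CPM of the 10 markers, Gsn among them, was also set as a covariate in the edgeR fit. There the log2 fold change of C4b was 4.00 in the infarct zone and 4.43 in the remote zone. Of the 9 cardiomyocyte markers tested, 6 were higher in CD45.2+ cells in the infarct zone and 7 in the remote zone by edgeR. Summed levels were 40.4 to 95.7 CPM in CD45.2 infarct and 50.1 to 117 CPM in CD45.2 remote libraries. In CD45.1 infarct libraries they were 16.9 to 23.9 CPM and in CD45.1 remote libraries 14.98 to 23.34 CPM (exact permutation p = 0.1 in each zone, the lowest possible, n = 3 each). The part of the fibroblast and cardiomyocyte transcripts in the complement values, C4b among them, was not tested.

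**Figure D3:**
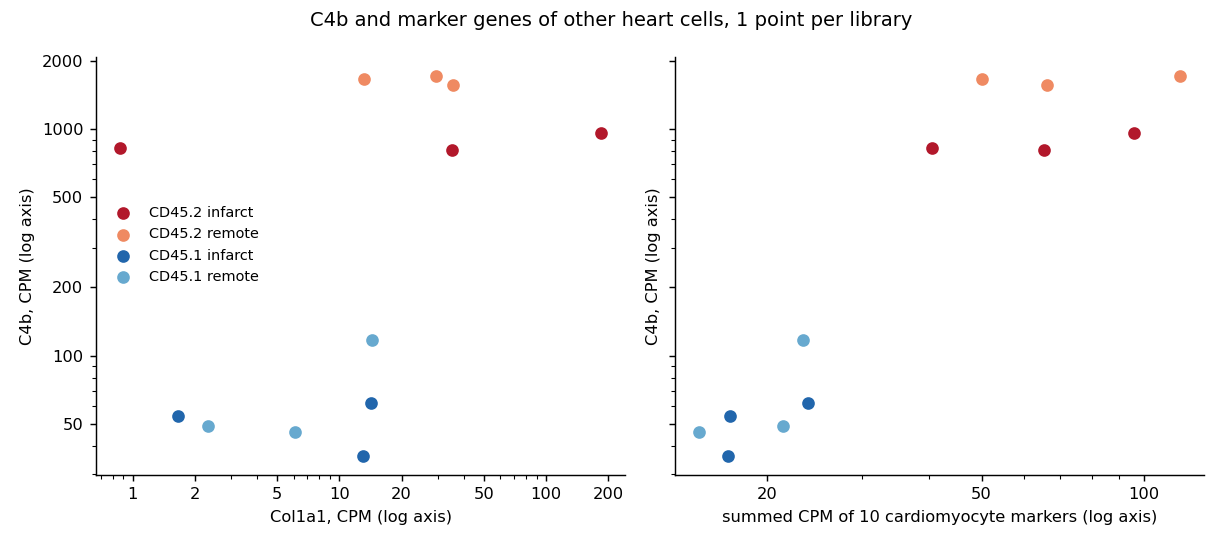
C4b (vertical, CPM on a log axis) against Col1a1 and against the summed CPM of 10 cardiomyocyte markers (both horizontal, log axes), with 1 point per library coloured by group. C4b lies at 809 CPM or more in CD45.2 libraries, with Col1a1 at 0.867 to 185 CPM. It lies at 118 CPM or less in CD45.1 libraries, with Col1a1 at 1.65 to 14.5 CPM. On average Col1a1 is higher in the CD45.2 group of each zone, and the cardiomyocyte sum is higher in the CD45.2 libraries too.

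Cfb encodes factor B, the enzyme precursor of the alternative pathway, and lies at chr17:34856374-34862518. It had 38.94, 40.75 and 70.5 CPM in CD45.2 infarct libraries and 101, 79.3 and 96.7 CPM in CD45.2 remote libraries, against 23.4, 25.3 and 55.2 CPM in CD45.1 infarct libraries and 20.2, 30.2 and 105.1 CPM in CD45.1 remote libraries. The populations overlapped in both zones, in the remote zone only through library S112, at 105.1 CPM. The log2 fold change was 0.53 (95% interval -0.63 to 1.69, edgeR adjusted p = 0.515) in the infarct zone and 0.83 (95% interval -0.33 to 2.00, edgeR adjusted p = 0.25) in the remote zone. Without S112 the remote value was 1.87 with an adjusted p of 0.00625 in edgeR. With S112 in the fit, the remote value also passed in limma-voom with quality weights (1.43, adjusted p = 0.0482). These weights let libraries count unequally, so S112 need not have counted in full there. It passed too in edgeR with the library set as a block (1.18, adjusted p = 0.0137). The sets were S104 to S107, S108 to S111 and S112 to S115, read from the data with 1 library of each group in each. They were split by the side of the second principal component and by the sex-linked transcripts Xist and Ddx3y. By these transcripts S108 to S111 read as male and the other libraries as female. Cfb was also the most variable member within groups: its CV averaged 47.3%, above that of 98.6% of 9202 genes with at least 10 CPM, where the median gene had 12.3%. Of its exon bases, 79.5% are shared with Gm20547, a readthrough gene model that spans C2 and Cfb, and a read pair was counted for each gene it overlapped. Gm20547 reached 0.956 to 0.991 of the summed CPM of C2 and Cfb in every library, so its counts are those of the 2 genes over again.

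Cfp encodes properdin, which stabilises the alternative pathway convertase, and lies at chrX:20925454-20931555. It was abundant in all groups: 970, 600 and 672 CPM in CD45.2 infarct libraries and 1367, 629 and 741 CPM in CD45.2 remote libraries, against 1067, 834 and 772 CPM in CD45.1 infarct libraries and 1429, 1124 and 1054 CPM in CD45.1 remote libraries. In each group the highest library was the one from S104 to S107, and the populations overlapped in both zones. The log2 fold change was -0.25 (95% interval -0.87 to 0.36, edgeR adjusted p = 0.56) in the infarct zone and -0.40 (95% interval -1.02 to 0.22, edgeR adjusted p = 0.302) in the remote zone. Without S106 the remote value was -0.82 (edgeR adjusted p = 0.0176), and without S104 to S107 it was -0.67 (edgeR adjusted p = 0.00595). With all 12 libraries it was -0.46 (adjusted p = 0.0234) in edgeR with the library set as a block. In limma-voom, where quality weights let libraries count unequally, it was -0.72 (adjusted p = 0.0251).

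C3ar1, the receptor of C3a, lies at chr6:122847138-122856161 and had 940, 879 and 901 CPM in CD45.2 infarct libraries and 741, 857 and 792 CPM in CD45.2 remote libraries. CD45.1 infarct libraries had 1016, 1143 and 1238 CPM of C3ar1, and CD45.1 remote libraries had 1060, 1029 and 1118 CPM. All 6 CD45.2 libraries were below all 6 CD45.1 libraries, by a small margin, a trait not counted over all genes. In the remote zone C3ar1 was 1.34-fold lower in CD45.2+ cells (log2 -0.42, SE 0.115, edgeR adjusted p = 0.0154), and with only the 6 remote libraries in the fit the adjusted p was 0.0641. In the infarct zone the value of -0.32 (SE 0.115, edgeR adjusted p = 0.0717) did not pass, although DESeq2 (adjusted p = 0.00561), limma-voom (adjusted p = 0.00405) and edgeR with the library set as a block (adjusted p = 0.0421) put it past the threshold. C3ar1 was the steadiest member within groups, with a mean CV of 6.18%.

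C5ar1, the receptor of C5a, lies at chr7:16246743-16259540. It had 1879, 1474 and 1466 CPM in CD45.2 infarct libraries and 1596, 1276 and 1329 CPM in CD45.2 remote libraries, against 1976, 1801 and 1900 CPM in CD45.1 infarct libraries and 1586, 1707 and 1153 CPM in CD45.1 remote libraries. The populations overlapped in both zones. The log2 fold change was -0.24 (95% interval -0.61 to 0.14, edgeR adjusted p = 0.357) in the infarct zone and -0.08 (95% interval -0.45 to 0.29, edgeR adjusted p = 0.743) in the remote zone. In limma-voom the infarct value was -0.32 and passed, with an adjusted p of 0.048. Per kb, C5ar1 averaged 625 ± 91.7 and 545 ± 66.9 CPM in CD45.2 infarct and remote libraries and 736 ± 34.2 and 577 ± 113.3 CPM in CD45.1 infarct and remote libraries (SD, n = 3 each), the highest member after the C1q chains in CD45.2 infarct macrophages.

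**Figure D4:**
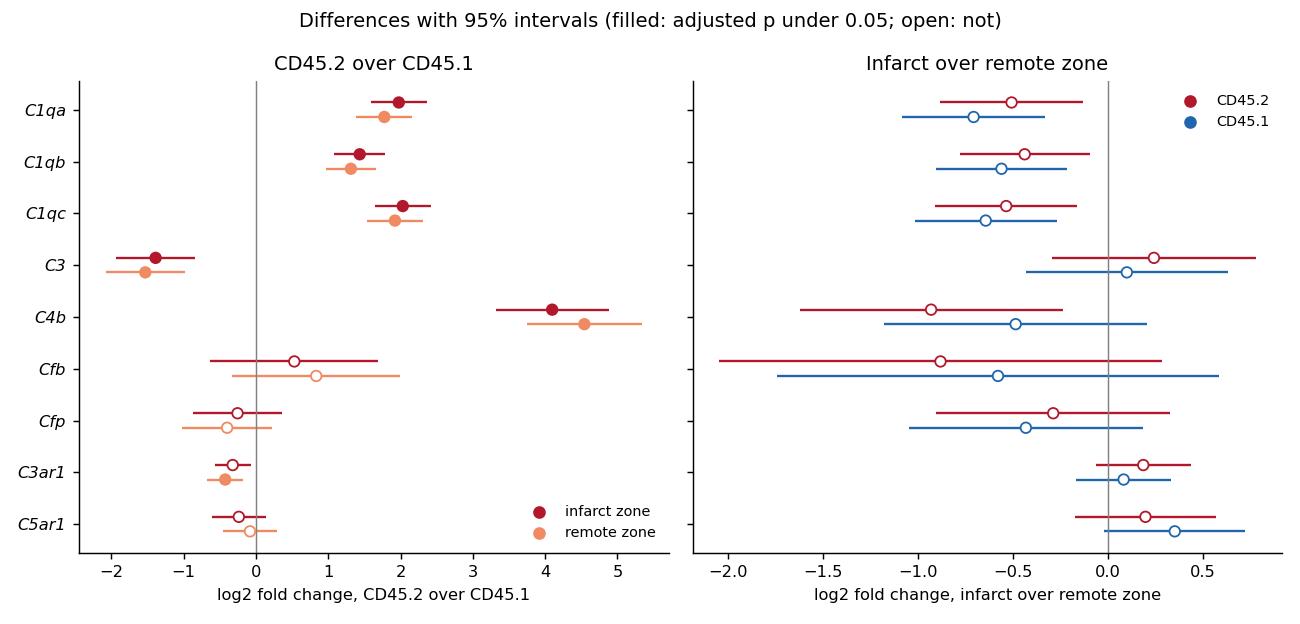
Log2 fold change of each of the 9 genes with its 95% interval, CD45.2 over CD45.1 in each zone on the left and infarct over remote zone in each population on the right, filled where the adjusted p was below 0.05 and open where it was not. C4b (4.10 and 4.54) and the C1q chains (1.31 to 2.03) are filled to the right of 0 and C3 (-1.39 and -1.53) to the left, and every zone value is open.

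The comparison of zones asks what the infarct adds within each population. For CD45.2+ macrophages, 0 of the 9 members passed edgeR's test between infarct and remote zone, against 1.46% of all genes higher and 0.293% lower in the infarct zone. At an unadjusted p below 0.05 there were 2963 of the 18773 genes tested and 4 of the members, C1qa, C1qb, C1qc and C4b, all lower in the infarct zone. Their infarct and remote libraries did not overlap, as the values above show, and the log2 fold changes, infarct over remote zone, were -0.51 for C1qa (95% interval -0.88 to -0.13, edgeR adjusted p = 0.178), -0.44 for C1qb (-0.78 to -0.10, adjusted p = 0.2), -0.54 for C1qc (-0.91 to -0.16, adjusted p = 0.153) and -0.93 for C4b (-1.62 to -0.24, adjusted p = 0.179). The share of all genes whose zones did not overlap was not counted. DESeq2 put these 4 past the threshold, with adjusted p of 0.0417, 0.0362, 0.0221 and 0.0423 in the same order. Over all genes it called 719 higher and 435 lower in the infarct zone. In limma-voom 0 members passed, and edgeR with the library set as a block put C1qc (adjusted p = 0.0487) and C4b (0.0294) past the threshold. That block called 950 of all genes higher and 507 lower.

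For CD45.1+ macrophages, 0 of the 9 members passed edgeR's test between the zones, and neither did any other gene (0% higher and 0% lower, with 1486 genes at an unadjusted p below 0.05, 190 called by DESeq2 and 0 by limma-voom). The members at an unadjusted p below 0.05 were the 3 C1q chains. C1qa was -0.71 on the log2 scale, infarct over remote zone (95% interval -1.08 to -0.33, edgeR adjusted p = 0.32), C1qb was -0.56 (-0.90 to -0.22, adjusted p = 0.384) and C1qc was -0.64 (-1.02 to -0.27, adjusted p = 0.36). Here too the infarct libraries were below the remote libraries without overlap, again without a count of such genes among all. DESeq2 gave adjusted p of 0.00869, 0.0175 and 0.0167 in the same order, and called 38 of all genes higher and 152 lower. C4b averaged 50.6 ± 13.1 CPM in CD45.1 infarct and 70.9 ± 40.6 CPM in CD45.1 remote libraries, with overlap (log2 -0.49, edgeR adjusted p = 0.794), and without S112 the value was 0.09. The median log2 fold change of the 9 members, infarct over remote zone, was -0.44 for CD45.2+ cells and -0.49 for CD45.1+ cells, against 0.02 and -0.00207 for all genes. These medians are the values of C1qb and of C4b in turn, and neither gene passed edgeR's adjusted test there.

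C3 and the receptors leaned to the infarct side without passing the test in either population. On the log2 scale C3 was 0.24 for CD45.2+ cells and 0.10 for CD45.1+ cells (edgeR adjusted p = 0.686 and 0.969), C3ar1 was 0.19 and 0.08 (0.461 and 0.937) and C5ar1 was 0.20 and 0.35 (0.621 and 0.666). Whether the zone difference itself was unequal between the populations was tested as an interaction, in which 0 of the 9 members and 0% of all genes in either direction passed edgeR's test. At an unadjusted p below 0.05 there were 0 members and 821 of all genes, and over all genes DESeq2 called 163 and limma-voom 25. The 95% interval of the interaction, CD45.2 minus CD45.1, was -0.33 to 0.73 for C1qa, -1.42 to 0.53 for C4b and -0.61 to 0.90 for C3, which leaves room for differences of these sizes in either direction.

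Ordered by level, the 4 groups ran the same way for each C1q chain: CD45.2 remote, CD45.2 infarct, CD45.1 remote and CD45.1 infarct. The zones did not overlap within a population, a trait not counted over all genes, and did not pass edgeR's adjusted test. The step between the populations in each zone passed it. For C4b the CD45.1 groups at the low end overlapped each other, and for C3 the order CD45.1 infarct, CD45.1 remote, CD45.2 infarct and CD45.2 remote held only between the populations, with zones overlapping within each. For C3ar1 the order was that of C3, with the CD45.2 infarct libraries all above the CD45.2 remote libraries and the CD45.1 zones overlapping. For Cfb, Cfp and C5ar1 neighbouring groups overlapped.

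Other genes of the complement pathway, 49 in all and taken from a list chosen with earlier results of these data known, were set beside the members, and 33 of them had enough counts to be tested. In the remote zone 10 were higher and 9 lower in CD45.2+ cells, and in the infarct zone 10 were higher and 6 lower. Their median log2 fold change was 1.00 for the remote and 0.91 for the infarct zone. Calls over all genes tested made up 16.2% higher and 15.8% lower (remote), then 12% and 7.56% (infarct). The shorter lists below were not tested against these shares, and 1 or 2 calls among 3 to 5 genes cannot be told from them. Of 5 classical pathway genes tested, 3 were higher in each zone (C1ra, C2 and C4a, whose reads may belong to C4b) and 0 lower, and C1rb and C1s1 did not pass.

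C2, the protease that pairs with C4, was 13.6, 14.6 and 18.6 CPM in CD45.2 infarct libraries and 22.3, 29.3 and 25.7 CPM in CD45.2 remote libraries, against 0.362, 0.306 and 0.385 CPM in CD45.1 infarct libraries and 0.383, 0.267 and 0.672 CPM in CD45.1 remote libraries. It stayed under 1 CPM in all CD45.1 libraries, with log2 fold changes of 5.46 (edgeR adjusted p = 1.17e-06) in the infarct zone and 5.88 (edgeR adjusted p = 4.84e-07) in the remote zone. It shares 42.8% of its exon bases with Gm20547. C1ra, a protease of the C1 complex, averaged 18.6 ± 1.91 CPM in CD45.2 infarct and 28.5 ± 1.67 CPM in CD45.2 remote libraries, against 11.4 ± 0.826 CPM in CD45.1 infarct and 16.6 ± 1.82 CPM in CD45.1 remote libraries (SD, n = 3 each), with log2 fold changes of 0.71 (edgeR adjusted p = 0.00279) and 0.79 (edgeR adjusted p = 0.000818) in the infarct and remote zones. It was also lower in the infarct than in the remote zone of CD45.2+ cells (log2 -0.62, edgeR adjusted p = 0.0338), a call lost in 9 of 18 alternatives, among them each fit without S107, S110, S111, S114 or S115, with adjusted p of 0.0511 to 0.151.

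Of 5 lectin pathway genes tested, 2 were higher (Fcna and Masp1) and 1 was lower (Fcnb) in CD45.2+ cells in each zone. Masp1 and Fcnb are named only to complete these counts, after their values were seen, and neither exceeded 3.53 CPM in any library. Fcna, ficolin A, a lectin of macrophages that recognises microbial sugars, averaged 126 ± 31.5 CPM in CD45.2 infarct and 256 ± 22.2 CPM in CD45.2 remote libraries, against 2.90 ± 0.661 CPM in CD45.1 infarct and 11.6 ± 5.52 CPM in CD45.1 remote libraries (SD, n = 3 each). Its log2 fold change was 5.44 (edgeR adjusted p = 4.07e-06) in the infarct zone and 4.46 (edgeR adjusted p = 4.72e-06) in the remote zone.

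Of 3 terminal pathway genes tested, 1 was higher in each zone, C6, a part of the membrane attack complex, singled out after its values were seen. It had 6.27, 9.90 and 7.61 CPM in CD45.2 infarct libraries and 17.3, 27.1 and 26.4 CPM in CD45.2 remote libraries. CD45.1 infarct libraries had 0 counts of C6 in all 3, and CD45.1 remote libraries had 6, 10 and 0 counts. Against a floor of 3 counts over the CD45.1 infarct group (0.0208 CPM), C6 was at least 381-fold higher in CD45.2 infarct macrophages. None of the 3 soluble regulators tested passed edgeR's test in either zone, among them Serping1, the C1 inhibitor, which ranged over 0.132 to 31.1 CPM among CD45.2 infarct libraries and 0.402 to 5.83 CPM among CD45.1 infarct libraries.

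The receptor list ran mostly the other way. Of 10 complement receptor genes other than the members, 1 was higher and 6 were lower in CD45.2+ cells of the remote zone, and 1 was higher and 5 were lower in the infarct zone. The 1 higher gene was Vsig4, the receptor of tissue macrophages for C3b and iC3b, at 90.0, 43.7 and 65.2 CPM in CD45.2 infarct libraries against 0.0805, 0.0705 and 0 CPM in CD45.1 infarct libraries. The lower genes included the chains of the iC3b receptors CR3 and CR4. Itgam, their CR3 chain, was -0.95 (edgeR adjusted p = 0.0167) in the infarct zone and -1.08 (adjusted p = 0.00562) in the remote zone on the log2 scale, and its protein CD11b was itself a sort marker. Itgb2, the chain they share, was -0.79 (edgeR adjusted p = 0.0197) and -0.80 (adjusted p = 0.0118) in the same order.

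The lineage panel that the study names for its flow cytometry of heart myeloid cells includes CD11c, the protein of Itgax, and whether this sort used the same panel was not given in the sources used here. Itgax, the CR4 chain, averaged 32.7 ± 4.16 CPM in CD45.2 infarct and 9.38 ± 0.742 CPM in CD45.2 remote libraries, against 61.8 ± 13.3 CPM in CD45.1 infarct and 29.0 ± 8.97 CPM in CD45.1 remote libraries (SD, n = 3 each). It was lower in CD45.2+ cells in both zones (log2 -0.92 and edgeR adjusted p = 0.0128 in the infarct zone, -1.63 and 0.000259 in the remote zone), and it rose in the infarct zone of CD45.2+ cells by 1.80 (edgeR adjusted p = 0.00232), against 1.09 in CD45.1+ cells (edgeR adjusted p = 0.224, DESeq2 adjusted p = 0.00181, and 0.0195 in edgeR with the library set as a block). That difference between the populations was 0.71 with an interaction adjusted p of 1. Cd93, a receptor long discussed as one for C1q, averaged 202 ± 38.0 CPM in CD45.2 infarct and 108.7 ± 8.20 CPM in CD45.2 remote libraries, against 307 ± 41.0 CPM in CD45.1 infarct and 321 ± 53.5 CPM in CD45.1 remote libraries (SD, n = 3 each). It was lower in CD45.2+ cells (log2 -0.60 and edgeR adjusted p = 0.0252 in the infarct zone, -1.56 and 4.39e-05 in the remote zone) and higher in the infarct than the remote zone of CD45.2+ cells (0.90, edgeR adjusted p = 0.0214), against -0.07 in CD45.1+ cells (adjusted p = 0.971). The zone call was lost in 5 of 18 alternatives, among them each fit without S107, S110 or S114 (adjusted p = 0.0753, 0.0966 and 0.061). The interaction of Cd93 was 0.96 with an edgeR adjusted p of 0.289 and a DESeq2 adjusted p of 0.02.

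Lrp1, an uptake receptor that works with calreticulin on C1q-coated cells, was -0.65 (edgeR adjusted p = 0.00829) in the infarct zone and -1.09 (edgeR adjusted p = 0.000208) in the remote zone. Calr, calreticulin, was -0.58 (edgeR adjusted p = 0.0656) and -0.93 (adjusted p = 0.00459) in the same order, and its infarct value passed in DESeq2 (adjusted p = 0.0193), limma-voom (0.0036) and edgeR with the library set as a block (0.00471). Several receptor calls were lost on leaving out 1 library, with log2 fold changes near those of all 12. In the infarct zone those of Itgam and Itgb2 were lost without S109, S111 or S115 (adjusted p of 0.0599 to 0.0735, log2 -0.95 to -0.88 for Itgam and -0.76 to -0.73 for Itgb2), that of Itgax without S109 or S115 (0.0598 and 0.0557), and that of Cd93 without S111, S113 or S115 (0.105, 0.085 and 0.0956). In the remote zone that of Itgb2 was lost without S108 or S114 (0.0584 and 0.0534). Of 5 membrane regulators tested, 1 was higher and 2 were lower in CD45.2+ cells of the remote zone, and 1 was higher and 0 were lower in the infarct zone. The higher gene was Cd55, which speeds the decay of C3 convertases, at 4.15 ± 2.79 CPM in CD45.2 infarct and 7.63 ± 4.51 CPM in CD45.2 remote libraries, against 0.567 ± 0.429 CPM in CD45.1 infarct and 0.378 ± 0.237 CPM in CD45.1 remote libraries (SD, n = 3 each). The lower genes were Cd59a and Cd59b, inhibitors of the membrane attack complex that also stayed under 10 CPM on average, and all 3 were named after their values were seen.

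**Figure D5:**
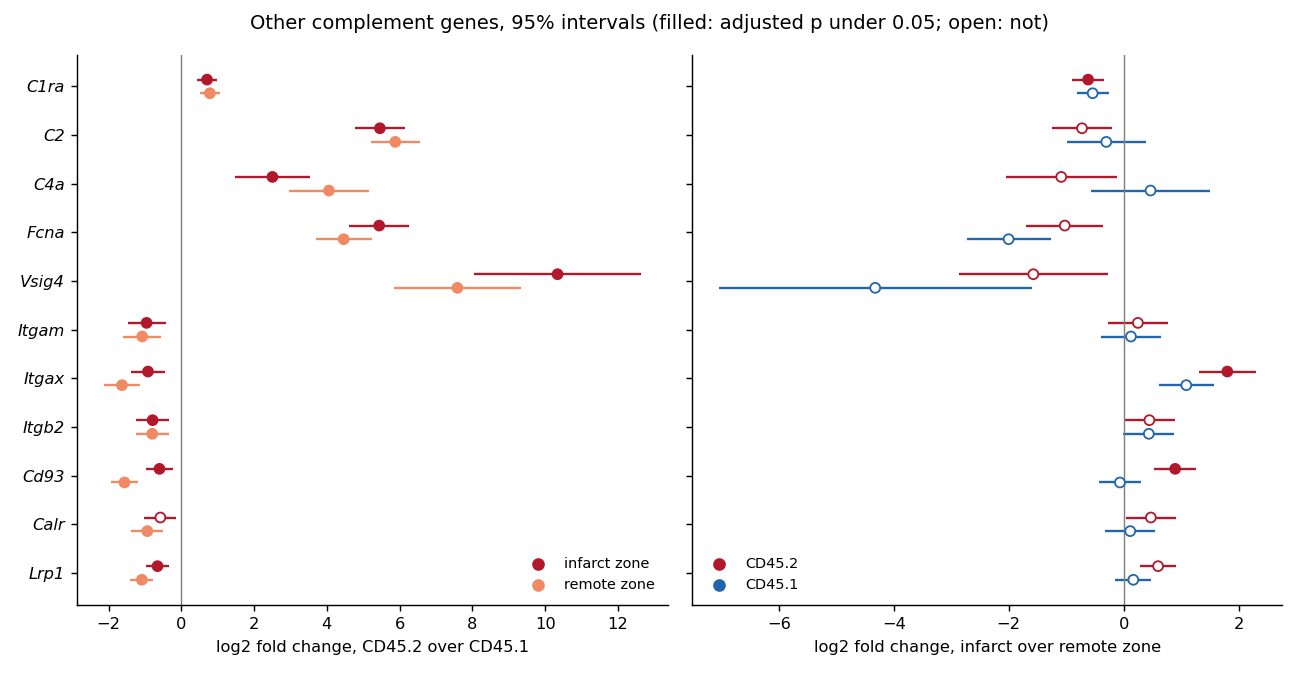
Log2 fold change of 11 other complement genes with 95% intervals, CD45.2 over CD45.1 in each zone on the left and infarct over remote zone in each population on the right, filled where the adjusted p was below 0.05. C2, C4a, Fcna and Vsig4 are filled to the right of 0 on the left panel and the receptor genes from Itgam to Lrp1 lie to the left of 0, while Itgax (1.80) and Cd93 (0.90) are filled to the right of 0 for CD45.2 on the right panel.

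Genes whose log2 CPM most resembled a member over the 12 libraries were searched among 9193 genes with at least 10 CPM. The C1q chains, taken as their mean, were nearest to Cbr2 (Pearson r = 0.998), a carbonyl reductase, Fcgrt (0.994), the neonatal Fc receptor, and Cd163 (0.994), the haemoglobin scavenger receptor. C4b was nearest to B3galnt1, C2 and Tgfbr2 (0.993 to 0.994), the last a TGF-beta receptor chain. Cfb was nearest to Gm20547 (0.985), which shares its reads, and then to H2-D1 (0.963), an MHC class I gene, and Epsti1 (0.953), a gene induced by interferon. C3 was nearest to Braf (0.979), C3ar1 to Ptbp3 (0.968), Cfp to Fpr1 (0.951), the formyl peptide receptor, and C5ar1 to Eif3d (0.945). Among the members, r was 0.967 to 0.977 between the C1q chains and C4b, -0.894 to -0.916 between the C1q chains and C3, and 0.869 between C3 and C3ar1. All 12 points share the populations, zones and libraries, and the values are a description.

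Neutrophil markers were read beside C3 and the receptors, because neutrophils also express C3ar1 and C5ar1. Their summed level was 67.7 to 86.7 CPM in CD45.2 infarct and 71.0 to 79.3 CPM in CD45.2 remote libraries, against 99.8 to 150 CPM in CD45.1 infarct and 144 to 203 CPM in CD45.1 remote libraries (exact permutation p = 0.1 in each zone, the lowest possible, n = 3 each). Most of the sum was Csf3r, which averaged 70.6 CPM in CD45.2 infarct and 72.5 CPM in CD45.2 remote libraries, against 112.1 CPM in CD45.1 infarct and 153 CPM in CD45.1 remote libraries. Of the 5 neutrophil markers with enough counts to be tested, 0 were higher and 1 was lower in CD45.2+ cells of the remote zone by edgeR. In the infarct zone 0 were higher and 0 lower. Ly6g was at most 0.0805 CPM and Mpo at most 0.0963 CPM in any library. S100a9 averaged 2.24 CPM in CD45.2 infarct and 1.31 CPM in CD45.2 remote libraries, against 3.82 CPM in CD45.1 infarct and 3.65 CPM in CD45.1 remote libraries. S100a8, a calprotectin chain abundant in neutrophils, averaged 2.58 CPM in CD45.2 infarct and 1.09 CPM in CD45.2 remote libraries, against 6.72 CPM in CD45.1 infarct and 5.73 CPM in CD45.1 remote libraries, with up to 16.1 CPM in 1 library. The part of these transcripts in the values of C3, C3ar1 and C5ar1 was not tested. Dendritic cell markers had 2 of 6 higher in CD45.2+ cells in each zone and 1 lower in the remote zone, at sums of 2.88 to 33.9 CPM, and their part in the complement values was not tested. The summed macrophage markers were 6990 to 7369 CPM in CD45.2 infarct and 8201 to 9395 CPM in CD45.2 remote libraries, against 6881 to 7440 CPM in CD45.1 infarct and 7210 to 7519 CPM in CD45.1 remote libraries.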

How the data were processed

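The authors trimmed the reads with bbduk, aligned them with HISAT2 (version 2.2.1) and counted read pairs per gene with featureCounts of Subread (version 2.0.1) on GRCm38.p6. Pairs over several genes counted for each of them, strand was ignored, and the kit (SMART-Seq v4) carries no molecular identifiers. The deposited values are raw counts per gene, with no normalization.

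Of 55487 gene IDs, 55227 matched a GENCODE M21 symbol. Genes were kept by filterByExpr (at least 10 counts in enough libraries, 15 in all), scaled by TMM and tested with edgeR 4.0.16 (quasi-likelihood, R 4.3.3) over all 12 libraries with 1 mean per group, with Benjamini-Hochberg adjustment over all genes tested (threshold 0.05). SE was obtained from the log2 fold change and the F statistic. The tests were tested on simulated counts. C1q ratios and marker sums were compared by exact permutation over libraries. Counts set the precision: the member group with the fewest held 5108 counts (Cfb, CD45.1 infarct).

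The 9 members and all lists were chosen with earlier results of these data known. Text was given to the members, to pathway genes with an adjusted p below 0.05 in any comparison and at least 10 CPM on average, to C4a and Gm20547 (1 gene that met this rule is not reported here), and to the 3 genes nearest to each member by Pearson r of log2 CPM. Alternatives were DESeq2 1.42.0, limma-voom with quality weights per library (limma 3.58.1), DESeq2 size factors, no filter and a stricter filter. Every limma-voom value given is from the fit with quality weights. Further alternatives were only the 6 libraries compared, scaling without markers of other cells, the fibroblast level as a covariate, and C4a and C4b summed. The rest were leaving out S104 to S107, each library in turn, and a block of 3 library sets read from the data. The C1qc transcript length, the block without 1 set and the fibroblast sum without Gsn were added after seeing the data. Figures and sequences were made with Python 3.11.15, Biopython 1.88 and matplotlib 3.10.9.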

Additional observations from a re-analysis of the deposited data

How the results depend on the processing

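The populations' calls of C1qa, C1qb, C1qc, C4b and C3 held in both zones under all 18 alternatives. Their log2 fold changes, CD45.2 over CD45.1, ranged over 1.84 to 2.17 in the infarct and 1.63 to 1.87 in the remote zone for C1qa, 3.90 to 4.22 and 4.30 to 5.12 for C4b, and -1.59 to -1.23 and -1.83 to -1.34 for C3. Of 324 values of the members between populations, 307 kept direction and side of the threshold, 1 lost its call, 12 gained one and 4 changed sign. Of 531 zone and interaction values, 505 kept both, 9 gained a call and 17 changed sign.

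Members lower in CD45.2+ cells of the remote zone numbered 1 with only the 6 libraries of the comparison. In the infarct zone they numbered 2 with DESeq2, 2 without S104 to S107, 2 with the library set as a block and 3 with limma-voom. Members lower in the infarct zone numbered 4 (CD45.2+) and 3 (CD45.1+) with DESeq2, and 2 (CD45.2+) with the block, against 0 in edgeR. Over all genes, edgeR called 330 between zones of CD45.2+ cells, DESeq2 1154, limma-voom 674, the block 1457 and the fit of 6 libraries 26.

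The values that changed sign passed no test. C5ar1 between populations in the remote zone was 0.01474 with the stricter filter, 0.09608 with the fibroblast covariate, 0.1026 with the block without 1 set and -0.2389 to 0.02596 on leaving out 1 library (S108 for the positive value). Between zones of CD45.2+ cells, Cfp was -0.5246 to 0.1297 on leaving out 1 library (S106). Between zones of CD45.1+ cells, such values were -0.07668 to 0.2493 for C3 (S113), -0.7145 to 0.09185 for C4b (S112), -1.07 to 0.46 for Cfb (S112; 0.06084 with limma-voom), and -0.1888 to 0.03686 for Cd93 (S109, S112; 0.007775 without S104 to S107). For the interaction they were -0.02232 to 0.2798 for C1qc (S109), -0.07542 to 0.4177 for C3 (S105, S110, S115), up to 0.1699 for Cfb (S104, S113; 0.06785 without S104 to S107) and -0.09147 to 0.5626 for Cfp (S104, S107, S110, S114). Without S104 to S107, C3ar1 was -0.05972 and C1ra 0.04821. The causes were not tested.

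Leaving out 1 library of a group assumed that the others vary like the remaining groups. The labels give no replicate number shared by groups, so the main fit was unpaired. The library set, read from the data with 1 library of each group in each, served as a block that compares libraries within sets. It put Cfb (edgeR adjusted p = 0.0137) and Cfp (0.0234) in the remote zone and C3ar1 (0.0421) in the infarct zone past the threshold. Between zones of CD45.2+ cells it put C1qc (0.0487) and C4b (0.0294) past it, and DESeq2 without the sets called 4 members there. The 0 members of the main fit thus depend on the method as well as on the sets. The summed fibroblast markers, CD45.2 over CD45.1, were 0.1489 in the infarct and 0.1204 in the remote zone on the log2 scale, 2.294 and 2.499 without Gsn, which macrophages also express, and -0.3552 to 0.4252 and -0.02418 to 0.2815 on leaving out 1 library (negative without S115 and S114).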
